A study of Sus scrofa with 21 samples.

Results

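The mitochondrial genome encodes a few subunits of the respiratory chain, and the 6 genes described here are those of complexes III, IV and V: CYTB, COX1, COX2, COX3, ATP6 and ATP8. The genes were chosen by name, and they are 6 of the 10917 named genes on a pig expression array. They were read by 77 of its 60305 probes: 25 for COX1, 22 for CYTB, 14 for COX3, 10 for ATP6, 5 for COX2 and 1 for ATP8. An Ensembl transcript of the pig mitochondrial genome named 72 of the probes, and a gene name or description named the other 5.

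Whole blood RNA was hybridised to one-colour arrays with 60-base probes. The SLAdd group (DD) held 10 pigs of 5 litters, from an inbred French herd of a minipig line that is homozygous at the swine leukocyte antigen locus. The Large White group (LW), the control, held 11 pigs of 6 litters. All were 60 days old, came from one farm and ate the same standard diet. The arrays were spread over 3 chips, where chip 1 held 3 DD and 4 LW, chip 2 held 4 of each and chip 3 held 3 of each. DD is a single closed line, so line, herd history and breed cannot be told apart. The comparison asks how the blood of DD pigs differed from that of LW pigs at this age.

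The respiratory chain moves electrons from nutrients to oxygen across the inner mitochondrial membrane, and the proton gradient it builds drives ATP synthesis. Cytochrome b, the product of CYTB, is the catalytic membrane subunit of complex III. COX1, COX2 and COX3 form the core of complex IV, cytochrome c oxidase, and ATP6 and ATP8 sit in the membrane part of complex V, the ATP synthase. The other subunits come from nuclear genes. Mitochondrial messenger RNAs are cut from long polycistronic transcripts and polyadenylated, and mitochondrial DNA passes from mother to offspring, so that littermates are expected to carry the same sequence. Mature red cells have lost their mitochondria, so mitochondrial RNA in blood comes from leukocytes, platelets and young red cells.

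In RefSeq's annotation of Sscrofa11.1, COX1 lies at MT:6511-8055, COX2 at MT:8203-8890, ATP8 at MT:8959-9162, ATP6 at MT:9120-9800, COX3 at MT:9800-10583 and CYTB at MT:15342-16481. ATP8 thus runs into ATP6, and the last base of ATP6 is the first of COX3. Probe positions below count bases from the start of the transcript, as the array annotation lists them.

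COX1, COX2, ATP6 and ATP8 rose in DD blood at every probe, and CYTB and COX3 at some of theirs. Of the 77 probes, 54 rose in DD pigs and none fell at an adjusted p below 0.05 in limma, against 11.0% of the 45228 tested probes that were higher and 10.7% that were lower. All 77 probes had a log2 fold change (FC, DD over LW) above 0, with a median of 0.69 and a range from 0.12 to 2.11, while the median over all tested probes was -0.07 and 42.4% lay above 0. Every member probe was well above background on all 21 arrays, and no spot was saturated. In whole blood, more cells of a mitochondria-rich type and more mitochondrial RNA per cell cannot be told apart.

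The size of the difference varied by gene, though the genes were not tested against each other. COX1 rose at 25 of 25 probes, with a median log2 FC of 0.70. These include O13550, which matches the opposite strand and is also part of the averaged COX1 value below. COX2 rose at 5 of 5 with a median of 1.15, ATP6 at 10 of 10 with a median of 0.82, and ATP8 at its 1 probe with 0.87. COX3 rose at 7 of 14 probes with a median of 0.62, and CYTB at 6 of 22 with a median of 0.38. With the probes of each gene averaged before the fit, the log2 FC was 1.21 for COX2 (SE 0.20), 0.87 for ATP8 (SE 0.18), 0.81 for both COX1 (SE 0.13) and ATP6 (SE 0.15), and 0.69 for COX3 (SE 0.22). CYTB did not pass the test in that form, at 0.48 (SE 0.22, adjusted p = 0.105).

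**Figure D1:**
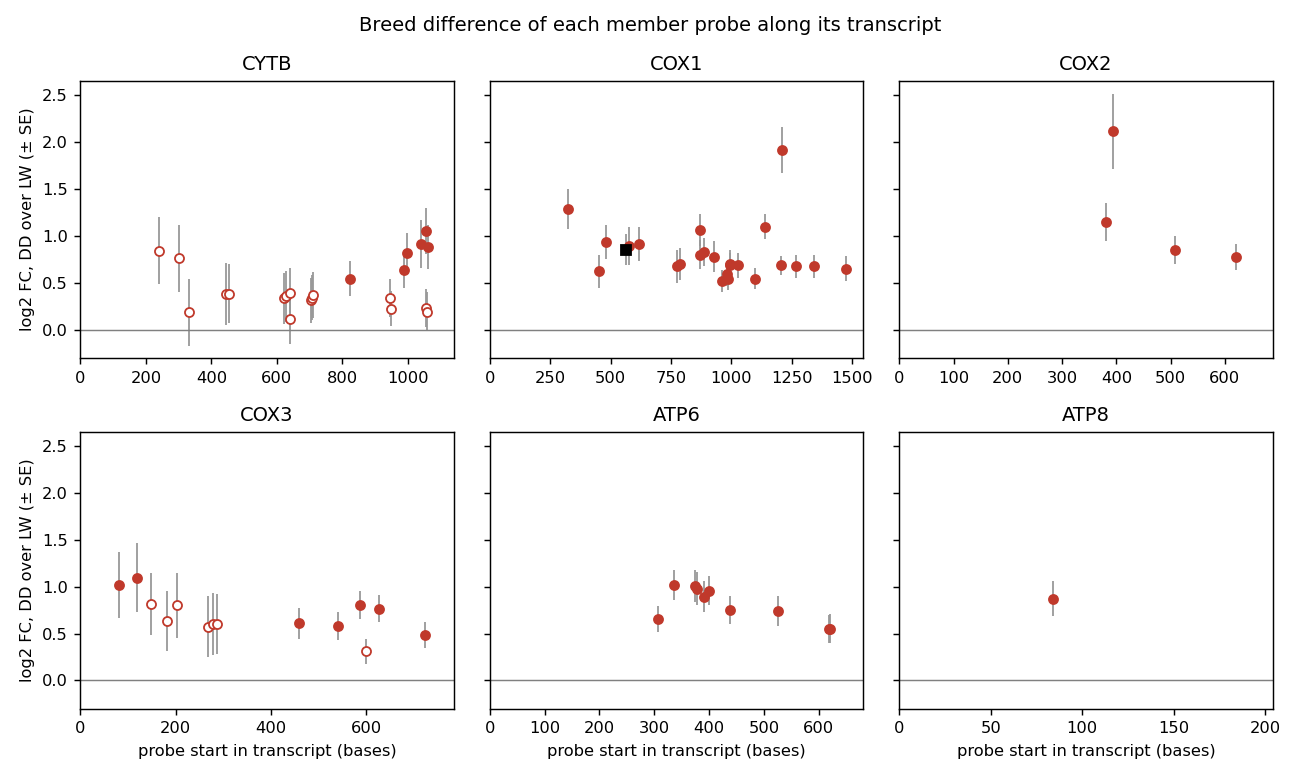
Log2 FC of DD over LW (vertical axis, bars show the SE) for each member probe against the start of the probe in its transcript in bases, 1 panel per gene. O5218 of COX2 has no position and is not drawn. Filled circles passed the test, open circles did not, and the square is a probe for the opposite strand. Every point lies above 0, and most open circles are in CYTB and in the first part of COX3.

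The difference varied with the chip. Over the 77 probes, chip 1 gave a median difference between breed means of 0.35, against 0.86 for chip 2 and 0.84 for chip 3, and 62 probes were higher in DD on all 3. COX1, COX2, ATP6 and ATP8 were higher at every probe on each chip. CYTB was not: on chip 1 only 8 of its 22 probes were higher in DD, and the median was -0.25, against 0.65 on chip 2 and 0.72 on chip 3. The study's methods name a technical bias of the third chip. Without chip 3, 10 member probes passed the test, all higher in DD, against 0.581% of all tested probes called higher in that fit. The median log2 FC without chip 3 was 0.69 for COX1, 1.07 for COX2, 0.82 for ATP6 and 0.73 for ATP8. It was 0.48 for COX3 and 0.21 for CYTB.

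Array brightness also moved with the breed. The log2 of the array's 75th percentile signal was 7.53 ± 0.54 in DD (SD, n = 10) and 8.22 ± 0.38 in LW (SD, n = 11), and the DD and LW means were 7.95 and 8.02 for chip 1, 7.55 and 8.31 for chip 2, and 7.09 and 8.36 for chip 3. With brightness as a covariate, 14 of the 77 probes were called higher: 8 of COX1, 4 of COX2, and 1 each of COX3 and ATP6. In that fit 0.975% of all tested probes were called higher, and the members' median log2 FC was 0.60.

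CYTB, the only member in complex III, was measured along most of its length. The 12 probes that start between positions 240 and 709 had log2 FC from 0.12 to 0.84, and none passed the test. Their signals spread widely within each breed. For A_72_P733846, the probe nearest the 5′ end, the log2 signal was 9.33 at the lowest, 10.69 at the median and 12.89 at the highest in DD, and 7.82, 10.10 and 11.48 in LW. The groups overlapped over most of that range, and the log2 FC was 0.84 (SE 0.35, adjusted p = 0.0875).

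Of the 10 CYTB probes from position 822 on, 6 rose in DD. The largest difference was at A_72_P355338, which starts at position 1056. Its log2 signal ran from 14.16 to 15.53 with a median of 14.89 in DD, and from 12.56 to 14.80 with a median of 13.90 in LW. There 5 of 10 DD pigs lay above all LW pigs and 8 of 11 LW pigs lay below all DD pigs, with a log2 FC of 1.05 (SE 0.24, adjusted p = 0.00777).

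Another probe that starts at the same base, A_72_P749269, gave a different answer. In DD it ran from 13.59 to 15.01 with a median of 14.30, and in LW from 13.17 to 14.96 with a median of 14.16. The groups overlapped almost fully, and the log2 FC was 0.23 (SE 0.20, adjusted p = 0.407). A_72_P757587, 3 bases on, behaved in the same way, at 0.19 (SE 0.21, adjusted p = 0.515), while A_72_P740839 at 0.91 (SE 0.26, adjusted p = 0.0209) and A_72_P726128 at 0.88 (SE 0.23, adjusted p = 0.0155) passed. The 5 sequences are shown because they cover nearly the same bases of CYTB. Capitals mark bases at which at least 1 pair of them differs by a substitution.
A_72_P740839: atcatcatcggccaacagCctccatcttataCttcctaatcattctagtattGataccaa
A_72_P355338: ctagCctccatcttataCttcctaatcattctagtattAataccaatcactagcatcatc
A_72_P726128: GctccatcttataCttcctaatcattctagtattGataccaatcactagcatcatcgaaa
A_72_P749269: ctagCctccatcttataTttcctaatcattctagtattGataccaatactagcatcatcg
A_72_P757587: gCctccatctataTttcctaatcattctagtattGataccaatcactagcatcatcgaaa

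A substitution is written with the base of the first probe named, its position from 1 at the 5′ end of that probe, and the base of the second. A_72_P355338 and A_72_P749269 differ by C18T and A39G, and A_72_P757587 and A_72_P726128 by C2G and T14C. C2G lies at the first base of A_72_P726128, where a missing c would score equally in the alignment. A_72_P740839 differs by C32T from both A_72_P749269 and A_72_P757587. That site, which is also the one of C18T and T14C, divides the 3 CYTB probes of this set that passed the test from the 2 that did not. A_72_P749269 and A_72_P757587, which did not pass, each also lack 1 base that A_72_P355338 and A_72_P726128 have. A_72_P740839, which passed, lacks 1 base that A_72_P355338 and A_72_P749269 have. The substitution and the missing bases were not tested apart.

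Because 2 probes on one array share its brightness and its RNA, their difference was compared as well. A_72_P749269 minus A_72_P355338 was -0.70 to -0.44 in the 10 DD pigs on the log2 scale. In LW it was -0.65 and -0.49 in the littermates LW_14 and LW_22, and 0.34 to 0.60 in the other 9. The LW pigs thus fell into separate ranges by litter, and 1 litter lay within the range of DD. The litter means differed by -0.85 between breeds (exact permutation p = 0.0108, two-sided, adjusted p = 0.0563 over 65 overlapping pairs).

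COX1, the catalytic subunit of complex IV that holds its oxygen-binding site, was called at all 25 probes, with log2 FC from 0.52 to 1.92. Among them is O13550, described below, which matches the opposite strand. The smallest adjusted p was at A_72_P739136, which starts at position 1140. Its log2 signal ran from 15.24 to 16.27 in DD with a median of 15.67, and from 14.20 to 15.32 in LW with a median of 14.59. All but 1 DD pig lay above every LW pig, and the log2 FC was 1.10 (SE 0.14, adjusted p = 2.16e-05).

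The largest COX1 difference, 1.92 (SE 0.24, adjusted p = 2.52e-05), was at A_72_P762153. Its log2 signal ran from 12.75 to 13.72 in DD with a median of 13.13, and from 10.45 to 12.66 in LW with a median of 10.93. No DD pig overlapped an LW pig, which held for 2 of the 77 member probes and 0.104% of all tested probes. A_72_P721538 starts 5 bases before it and showed 0.69 (SE 0.11, adjusted p = 0.000251). Both sequences are shown, with the substituted base in capitals, because they share most of their bases and differ in the breed comparison.
A_72_P721538: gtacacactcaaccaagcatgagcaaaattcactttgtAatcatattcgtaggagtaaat
A_72_P762153: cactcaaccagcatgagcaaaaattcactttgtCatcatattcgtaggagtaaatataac

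These probes differ by A39C and by 1 base that each lacks relative to the other. A_72_P762153 minus A_72_P721538 was -2.10 to -1.49 in DD. The LW littermates LW_14 and LW_22 lay within that range, and the other 9 LW pigs at -3.72 to -2.96. The litter with values near those of DD was the same one as for CYTB. The litter means differed by 1.26 (exact permutation p = 0.00866, two-sided, adjusted p = 0.0563 over the 65 pairs).

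The COX1 probe O13550 matches the opposite strand of the COX1 probe A_72_P730653 over 46 bases, in capitals. Its remaining bases lie beyond that probe and were not compared with the gene. It is shown because its orientation is opposite to that of the other COX1 probes.
O13550: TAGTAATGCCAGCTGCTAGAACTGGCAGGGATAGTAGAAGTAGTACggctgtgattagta

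O13550 gave a signal all the same. It ran from 7.29 to 8.37 in DD with a median of 7.96, and from 6.27 to 7.63 in LW with a median of 6.99. In this case 7 of 10 DD pigs lay above every LW pig, and the log2 FC was 0.85 (SE 0.16, adjusted p = 0.00193), within the range of the other COX1 probes.

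COX2, which takes electrons from cytochrome c, had the largest differences among the members. At A_72_P442181, its probe nearest the 3′ end, the log2 signal ran from 16.06 to 17.17 in DD with a median of 16.50, and from 15.31 to 16.31 in LW with a median of 15.80. There 8 of 10 DD pigs lay above every LW pig, with a log2 FC of 0.78 (SE 0.14, adjusted p = 0.00125). O5218 could not be aligned to the other COX2 probes, and its log2 FC was 1.16 (SE 0.20, adjusted p = 0.000849).

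The largest log2 FC of any member, 2.11 (SE 0.40, adjusted p = 0.00165), was at A_72_P746371. In DD it ran from 12.72 to 14.02 with a median of 13.62. In LW it ran from 8.95 to 13.11 with a median of 11.29, a spread of 1.30 (SD, n = 11) against 0.42 in DD (SD, n = 10). A_72_P751248 starts 12 bases before it, and ran from 13.78 to 15.09 in DD and from 12.36 to 14.05 in LW, with a log2 FC of 1.15 (SE 0.20, adjusted p = 0.000839). The 2 sequences share 48 bases and differ at 1, in capitals, with no base missing in either.
A_72_P751248: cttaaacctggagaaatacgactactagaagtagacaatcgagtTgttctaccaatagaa
A_72_P746371: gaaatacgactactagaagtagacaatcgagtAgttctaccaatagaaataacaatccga

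The substitution is T45A. A_72_P746371 minus A_72_P751248 was -1.26 to -0.85 in DD with a median of -1.09. In LW it ranged from -3.41 to -0.93 with a median of -1.65. LW_02, LW_07, LW_18, LW_12 and LW_24, which are 3 litters, had -3.41 to -2.56, whereas 2 further litters, LW_04 with LW_09 and LW_05 with LW_15, had -1.65 to -1.29. LW_14 and LW_22 had -1.30 and -0.93, next to the range of DD. The litter means differed by 1.06 (exact permutation p = 0.0303, two-sided, adjusted p = 0.0895 over the 65 pairs), which did not pass the adjustment.

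**Figure D2:**
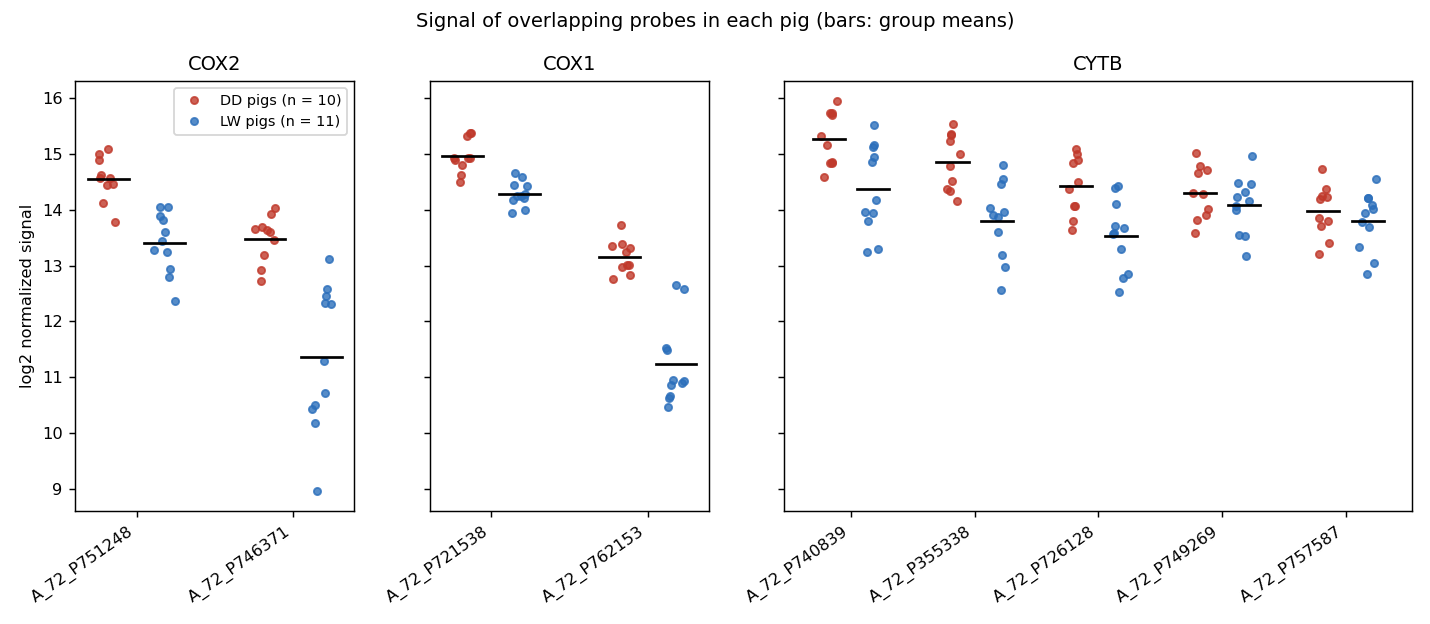
Deposited log2 signal (vertical axis) of each pig for the overlapping probes of COX2, COX1 and CYTB, DD in red and LW in blue. Bars show group means. Below all DD points lie 10 of 11 LW points for A_72_P746371 and all 11 for A_72_P762153, while for A_72_P749269 and A_72_P757587 the breeds overlap.

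The same division of LW litters returned within CYTB in pairs with A_72_P740839. A_72_P740839 and A_72_P726128 overlap over 42 bases and differ by C19G or, scored equally, by a missing c. A_72_P740839 minus A_72_P726128 was 0.75 to 1.04 in DD and 0.70 to 0.75 in LW_14 and LW_22. The 3 LW litters that were lowest for the COX2 pair had 0.38 to 0.50, and the remaining 2 had 1.13 to 1.45. Here the breeds' litter means differed by only 0.05 (exact permutation p = 0.84, two-sided), since LW litters lay on both sides of DD. A_72_P740839 minus A_72_P355338, which differ by G53A and by 1 base missing in A_72_P740839, also set LW_04, LW_09, LW_05 and LW_15 apart. They had 1.06 to 1.38, against 0.06 to 0.32 in the other LW pigs and 0.32 to 0.50 in DD. Both probes have C at the site of C19G. Which bases go with the division was not tested. These pairs were picked after their values were seen, so the ranges by litter are a description. The pigs' own mitochondrial sequences were not analysed here, and a part of sequence differences in these signals was not tested.

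**Figure D3:**
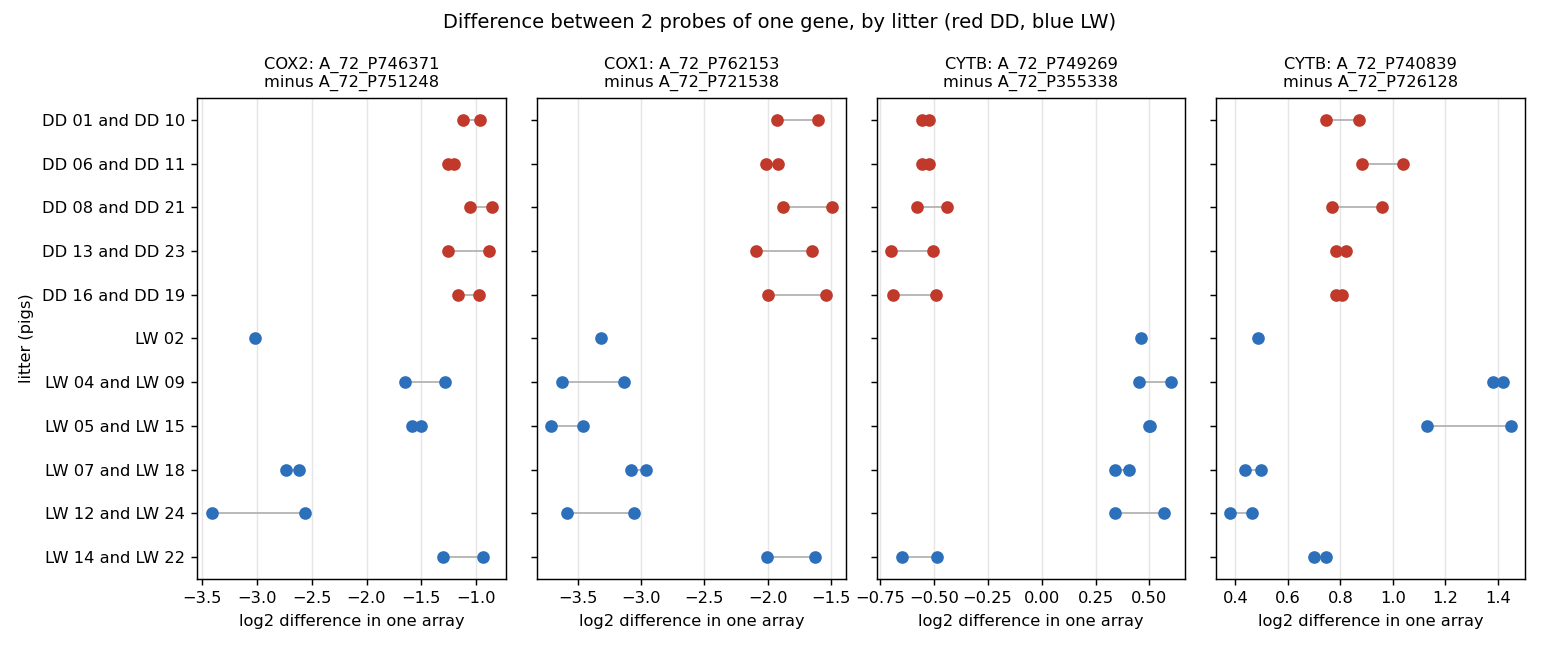
Difference in log2 signal between 2 overlapping probes on the same array (horizontal axis) by litter (vertical axis), with each point a pig, lines joining littermates, DD in red and LW in blue. LW_14 and LW_22 lie within or next to the DD range in each panel, and the widest gap between littermates is that of LW_12 (-3.41) and LW_24 (-2.56) for COX2.

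Over all 65 overlapping pairs of member probes, the change in breed difference was set beside the bases in which the probes differ. In 37 pairs without a substitution, the 2 probes' breed differences were apart by a median of 0.06 and at most 0.58. In 28 pairs with at least 1 substitution, the median was 0.18 and the maximum 1.26, and these held 9 of the 10 pairs apart by over 0.5. Of those 9, 6 were pairs within the 5 CYTB probes shown above. Pairs with at least 1 missing base also held 9 of the 10, since 8 pairs had both. By kind, the median was 0.18 in 7 pairs with a substitution alone and 0.19 in 21 pairs with both. It was 0.05 in 29 pairs with a missing base alone and 0.13 in 8 pairs with neither. The substitution at the first base of A_72_P726128 could equally be scored as a missing base, so the kind of its pairs is not settled. Other substitutions at the first base of a probe were not checked for this. The difference between these sets of pairs was not tested. In the exact permutation test over litter means, 23 of the 65 pairs had an unadjusted p below 0.05 and 0 passed the Benjamini-Hochberg adjustment. With chip means removed first, 17 passed: 10 of the 28 with a substitution and 7 of the 37 without. Overlapping pairs share probes, so the counts are not independent.

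Each probe was also set against the brightest probe of its gene. Of 71 such differences, 18 had an unadjusted exact permutation p below 0.05 and 0 passed the adjustment, the smallest adjusted p being 0.0512. The test had 462 divisions of the 11 litters and could give no p below 0.00216. With chip means removed, 14 passed, of which 7 were in ATP6, 4 in CYTB, 2 in COX3 and 1 in COX1.

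COX3, the third core subunit of complex IV, divided along its length. Its 8 probes from position 82 to 287 had log2 FC from 0.57 to 1.09, of which 2 passed the test. For A_72_P760010 the log2 signal ran from 10.06 to 13.76 in DD with a median of 11.69, and from 8.26 to 12.39 in LW with a median of 11.37. The medians were close and both ranges wide, and the log2 FC was 1.09 (SE 0.37, adjusted p = 0.0388). From position 460 on, 5 of 6 probes passed with log2 FC from 0.48 to 0.80. For A_72_P722568 the log2 signal ran from 16.37 to 17.40 in DD with a median of 16.79, and from 15.31 to 16.53 in LW with a median of 16.17. Of the DD pigs, 6 lay above every LW pig, and the log2 FC was 0.80 (SE 0.15, adjusted p = 0.0014). The exception was A_72_P759849 at 0.31 (SE 0.13, adjusted p = 0.0957), which overlaps A_72_P722568. The bases of A_72_P722568 and A_72_P759849 differ by G19A, and each lacks 1 that the other has.

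The signal near the 5′ end, relative to the 3′ end, differed widely between chips and arrays. For each array, the mean log2 signal of probes starting in the third of the transcript nearest its 3′ end was subtracted from that in the third nearest its 5′ end. For CYTB this difference was -3.19 to -2.57 on chip 1, -6.11 to -2.99 on chip 2 and -5.42 to -4.23 on chip 3. COX3 had -3.08 to -2.47, -5.59 to -2.61 and -5.69 to -3.98, and COX1 a narrower -3.04 to -2.46, -4.04 to -2.67 and -3.82 to -3.24. Breed differences of the litter means were -0.18 for CYTB (exact permutation p = 0.732), 0.12 for COX3 (exact permutation p = 0.82) and -0.04 for COX1 (exact permutation p = 0.877), all two-sided. On chip 3 alone, COX3 was -4.80 to -3.98 in the 3 DD pigs and -5.69 to -4.99 in the 3 LW pigs, with no overlap, and CYTB was -4.89 to -4.23 and -5.42 to -4.65.

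On chip 2, DD_13, DD_16 and LW_15 held the lowest values for CYTB and COX3. The within-breed SD of the 5′ probes was wide. It was 1.25 to 1.32 for CYTB and 1.25 to 1.41 for COX3, against 0.43 to 0.79 and 0.33 to 0.46 for the probes nearest the 3′ end. None of the 3 CYTB probes at the 5′ end passed the test, compared with 6 of 10 at the 3′ end. COX3 had 2 of 5 and 4 of 5, whereas COX1 had 3 of 3 and 7 of 7. A part of the 5′ signal in these counts was not tested.

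**Figure D4:**
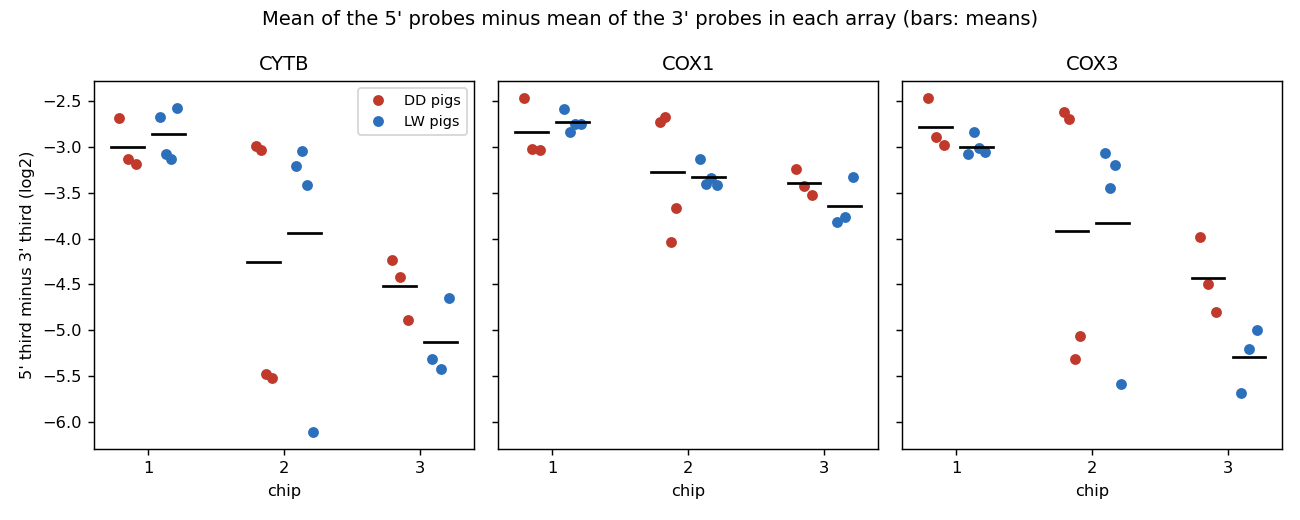
Mean log2 signal of the probes in the third of the transcript nearest the 5′ end minus that in the third nearest the 3′ end (vertical axis) for CYTB, COX1 and COX3, with each point an array, DD in red and LW in blue, by chip. Bars show means. Chip 1 is tight, chip 3 lies lower, and DD_13, DD_16 and LW_15 of chip 2 stand apart for CYTB and COX3.

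ATP6, which forms part of the proton channel of ATP synthase, was called at all 10 probes, with log2 FC from 0.55 to 1.02. The largest was at A_72_P721760, where DD ran from 14.43 to 15.71 with a median of 15.06 and LW from 13.28 to 14.60 with a median of 14.40. All but 1 DD pig lay above every LW pig, with a log2 FC of 1.02 (SE 0.16, adjusted p = 0.000323). A_72_P722713 had no overlap between the breeds: its lowest DD signal was 14.74 and its highest LW signal 14.72, and the log2 FC was 0.96 (SE 0.16, adjusted p = 0.000401). The smallest ATP6 differences were at the 3′ end, at O2494 and A_72_P442189, both 0.55 (SE 0.15, adjusted p = 0.0181 and 0.0206).

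ATP8, a small subunit of the ATP synthase membrane part, had a single probe, A_72_P442187. The log2 signal ran from 11.52 to 13.42 in DD with a median of 12.03, and from 10.60 to 12.35 in LW with a median of 11.20. Of the DD pigs 4 lay above every LW pig, and the log2 FC was 0.87 (SE 0.18, adjusted p = 0.00406). Chip 1 gave a difference of 0.26, chip 2 one of 1.18 and chip 3 one of 1.14. With brightness as a covariate the log2 FC was 0.48 and not called.

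The nuclear subunits of the same complexes did not share the direction. Of their 115 tested probes, 3 rose in DD and 28 fell, against 11.0% and 10.7% of all tested probes. With assembly factors and genes of mitochondrial RNA handling added, 7 of 177 rose and 36 fell, with a median log2 FC of -0.25. These 43 calls became 5 with brightness as a covariate, 4 without chip 3, 12 without LW_18 and 68 without DD_06. Over all tested probes, the share called went from 21.7% to 2.31%, 1.43%, 6.92% and 33.8% in those fits. Complex III had 2 probes higher and 1 lower of 20, with a median of -0.25. UQCR10, a small subunit of the complex, rose at 0.67 (SE 0.13, adjusted p = 0.00259) and UQCRC2, a core subunit, fell at -0.78 (SE 0.11, adjusted p = 8.89e-05). Complex IV had 0 higher and 12 lower of 42, with a median of -0.19, from COX7C at -1.07 (SE 0.15, adjusted p = 9.87e-05) to NDUFA4 at -0.33 (SE 0.12, adjusted p = 0.0463). All 12 were probes of COX6C, COX7C, COX6A1 and NDUFA4.

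Complex V had 1 probe higher and 15 lower of 53, with a median of -0.31. ATP5F1C, the gamma subunit that turns inside the catalytic head, fell at -0.50 (SE 0.11, adjusted p = 0.00613), and ATP5IF1, an inhibitor of ATP hydrolysis by the enzyme, rose at 1 of its 5 probes, O10341, at 0.70 (SE 0.20, adjusted p = 0.0212). The other ATP5IF1 probes had log2 FC of 0.02, 0.04, 0.05 and 0.45 and did not pass. Assembly factors had 1 higher and 4 lower of 23. COX15, which makes the heme of complex IV, rose at 1 of 2 probes, at 0.73 (SE 0.21, adjusted p = 0.0226), with 0.16 at the other. SCO1, a copper chaperone for COX2, fell at -0.65 (SE 0.11, adjusted p = 0.000895).

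Genes of mitochondrial transcription and RNA handling had 3 higher and 4 lower of 39. REXO2, an exonuclease of short RNAs, rose at 3.99 (SE 0.51, adjusted p = 3.04e-05) with a second probe at 3.93, and TFAM, the factor that packages mitochondrial DNA and starts its transcription, fell at -0.49 (SE 0.17, adjusted p = 0.0397). With brightness as a covariate, the named probes of UQCRC2, COX7C and REXO2 were still called, at -0.67, -0.77 and 3.12. Those of UQCR10 (0.67), NDUFA4 (-0.16), ATP5F1C (-0.35), ATP5IF1 (0.09), SCO1 (-0.45), COX15 (0.05) and TFAM (-0.21) were not. Scaling each array by its 75th percentile left 55 member probes called higher but moved the nuclear calls to 8 higher and 12 lower. In that fit 20.4% of all tested probes were called, and 13.5% were called higher. For the mitochondrial genes of complex I, measured by 53 probes, 47 were higher in DD and none lower, with a median of 0.92.

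**Figure D5:**
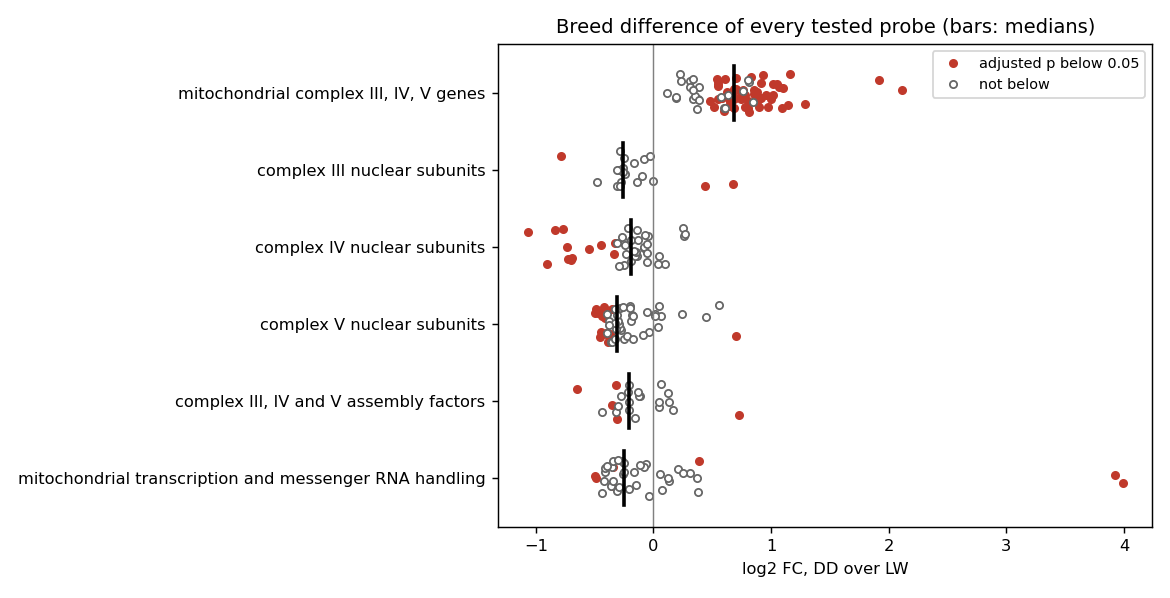
Log2 FC of DD over LW (horizontal axis) for every tested probe of the 6 members and of the 5 nuclear lists, with a point per probe, filled where it passed the test, and bars at the medians. All member probes lie above 0, while the nuclear subunit lists centre below 0, at medians of -0.25, -0.19 and -0.31.

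Markers of blood cell types moved in part with the breed. The counts below stand against 11.0% of all tested probes called higher in DD and 10.7% called lower. Erythroid markers had 7 probes higher in DD and 0 lower of 19, among them CA1 at 1.07 (SE 0.35, adjusted p = 0.0362) and GATA1 at 0.40 (SE 0.12, adjusted p = 0.0254). With brightness as a covariate these were 0.28 (adjusted p = 0.93) and 0.14 (adjusted p = 0.835). Of the 19 erythroid probes 14 had a log2 FC above 0, with a median of 0.40. The summed level of a list is the log2 of its added linear signals, so the brightest probes weigh most. For the erythroid markers it ran from 18.91 to 20.03 in DD and from 18.89 to 20.10 in LW, so the ranges of this sum nearly coincided. BPGM, GYPC, HBA, HBM, HBQ1 and TRIM58 of that list had no probe matched by name. T cell markers had 0 higher and 8 lower of 31, with summed levels of 14.49 to 15.60 in DD and 15.22 to 15.85 in LW. The lowest and highest log2 FC among the called T cell probes were -1.14 for CD8A and -0.35 for LCK. With brightness as a covariate they were -0.55 (adjusted p = 0.475) and -0.13 (adjusted p = 0.73). Platelet markers had 1 lower of 12, monocyte markers 1 higher and 4 lower of 32, and neutrophil and B cell markers none of 16 and 17. The part of cell composition in the members' differences was not tested.

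The brightest probes of CYTB, COX2, COX3 and ATP6 varied together over the 21 arrays once chip and breed means were removed, with Pearson's r from 0.89 to 0.96. ATP8 had 0.60 to 0.71 with these 4, and COX1 between -0.02 and 0.41 with the other members. The genes outside the mitochondrial genome with the highest r were DYNLRB1, CAB39 and EFNA4 for CYTB (each 0.72), SLC31A2 (0.78), SLC35F5 (0.75) and TPMT (0.75) for COX1, and IMPA1 (0.75), ANKRD9 (0.74) and MRPS6 (0.74) for COX2. For COX3 they were CAB39 (0.72), EFNA4 (0.70) and ANKRD9 (0.70), for ATP6 ATP2A3 (0.77), CAB39 (0.76) and DYNLRB1 (0.76), and for ATP8 DLEC1 (0.87), ADORA2A (0.84) and CAB39 (0.82). CAB39 was among the leading 3 for 4 of the 6 members. The arrays share chip and brightness, and these values are a description of likeness over them.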

How the data were processed

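Blood RNA of 21 pigs was labelled with one dye from the poly(A) tail and scanned with Agilent Feature Extraction 10.7.3.1, per the submitters' processing notes. The authors corrected the background (normexp), took log2 and quantile normalized the arrays after removing outlier arrays, and the deposited matrix holds these log2 values. The deposited scanner files hold the processed signal intensity and the flags for background and saturation, which were used for brightness and alternatives. Chip and sow were taken from the study's animal list.

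The probes of the lowest 25% by mean were removed, leaving 45228. limma 3.58.1 in R 4.3.3 was fitted to all of them with breed and chip as fixed effects and sow as a random block (consensus correlation -0.11), and p-values were adjusted by Benjamini-Hochberg over all probes, at 0.05. The code was tested on simulated data. Differences between probes on one array were tested on litter means by exact permutation, two-sided. The pigs of a breed are separate animals, but littermates are related, so the blocks are litters. The sow block raised the calls in limma: 21.7% of all tested probes were called with it and 15.2% without it. The number of arrays limits the precision.

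Every member probe was counted, and a part of them is named with values. From each nuclear or marker list the called probes with the highest and lowest log2 FC were eligible to be named. The 3 genes most like each member were taken by Pearson's r on residuals. Members and lists were chosen with earlier results of these data known. Overlapping probes were aligned with Biopython, with gaps allowed, and probe sequences were those in the deposited annotation. A further 77 probes carried a member's name in their description alone, mostly by similarity to other species, and were not counted as members. Gene positions came from RefSeq's table for Sscrofa11.1. PTGS2, which shares the synonym COX2, is no member.

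Alternatives were other background corrections, scaling by the 75th percentile, other filters, fits without sow or chip, litter means, brightness as a covariate, another variance model, probes averaged by gene, and each chip or pig left out. Differences between overlapping probes and between the ends of a transcript were added after seeing the data.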

Additional observations from a re-analysis of the deposited data

How the results depend on the processing

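The count of 54 member probes called was 51 to 55 under recomputed background correction with an offset of 0 or 50, 75th percentile scaling, other filters, no sow block, litter means and the other variance model. Over these fits, 5.66% (no filter) to 15.3% (probes well above background on at least 10 arrays) of all tested probes were called higher. The count was 53 without chip 1, 41 without chip 2 and 37 with no chip term, where 12.5%, 5.89% and 2.04% were called higher. It was 14 with brightness as a covariate (0.975% of all called higher) and 10 without chip 3 (0.581%). With probes averaged by gene it was 5 of 6, where fewer features are tested and 11.2% were called higher. With each pig left out the count of member probes ran from 42 (without LW_18, 2.76% of all called higher) to 57. Over those fits the share of all tested probes called higher ran from 2.76% to 15.9%. The 43 nuclear probes called became 20 under 75th percentile scaling, 13 with no chip term, 5 with brightness, 17 of 72 genes with probes averaged, and 4 without chip 3. The share of all features called was 21.7% in the main fit and 20.4%, 6.01%, 2.31%, 23.4% and 1.43% in these. Leaving out a pig gave 12 (LW_18) to 68 (DD_06), with 18 without DD_21, 26 without DD_23 and 27 without LW_22. The shares of all tested probes called were 6.92%, 33.8%, 9.43%, 12.2% and 11.7%, in that order. Probe differences within a gene, 0 called, became 14 with chip means removed, 12 without chip 1 and 4 without chip 2, and 17 of 65 for overlapping pairs with chip means removed. The processed signal or the mean of the other probes as the reference gave 0.

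Among the member probes, the log2 FC turned below 0 in CYTB alone. With brightness the values were -0.0012 (A_72_P726067), -0.16 (A_72_P725783), -0.0035 (A_72_P721121) and -0.011 (A_72_P757587). Without chip 2 they were -0.025 (A_72_P725783), -0.037 (A_72_P727568), -0.040 (A_72_P749269) and -0.10 (A_72_P757587). Without chip 3 they were -0.21 (A_72_P726067), -0.015 (A_72_P724485) and -0.18 (A_72_P725783). With each pig left out, A_72_P726067 ran from -0.00055 to 0.37 and A_72_P725783 from -0.033 to 0.27, both lowest without DD_10. None of these probes was called. The cause was not tested. No paired analysis was possible because the DD and LW pigs were different animals of different litters.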

Other observations

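Of the 77 probes that carried a member's name in their description alone, 52 passed the filter on dim probes. In the breed comparison 4 of these were called higher in DD and 3 lower, against 11.0% and 10.7% of all tested probes. The 77 member probes all passed that filter.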
